A study of Mus musculus with 12 samples.

Results

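*Rhox5*, also called Pem, is a homeobox gene of the X chromosome, and its RNA level was followed here in mouse acute myeloid leukemia cells taken from 3 kinds of host mice. It is 1 gene of the 55401 in the expression table, and 1 of the 15026 that averaged 1 TPM (transcripts per 1000000 transcripts, after division by gene length) or more and entered the fit across all genes. The gene was chosen by its TPM values, which differed between the hosts, so those values are described below and no test result is given for it. It was selected on the 12 library values of *Rhox5* itself and the 2 comparisons of Rag2-/- hosts with the other hosts.

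All 12 libraries came from 1 leukemia, made by giving mouse bone marrow progenitors the fusion oncogene MLL-AF9 together with GFP. The leukemia had been passed through more than 10 rounds of transplantation into non-irradiated mice before this experiment. It was then given to female hosts: wild-type C57BL/6 mice with normal immunity (WT), Rag2-/- mice, which have no mature T or B lymphocytes but keep natural killer (NK) cells, and NSG mice, which lack T, B and NK cells. When the hosts were moribund, GFP+ leukemia cells of the bone marrow were collected and their polyadenylated RNA was sequenced in read pairs, in 4 libraries per host labelled as biological replicates. The hosts were young adult mice, and no sample of untransplanted leukemia or of normal marrow was analysed here. The Rag2 mutation was carried by the host and not by the leukemia, so no library could be checked against its label by a targeted gene. Because 1 leukemia was the source of every library, the spread between libraries measures host and handling and not differences between leukemias.

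Rhox5 is a transcription factor of the reproductive homeobox (Rhox) cluster, a group of X-linked homeobox genes used mainly in testis, epididymis, ovary and placenta. In the normal animal it is on in Sertoli cells of the testis and in extraembryonic tissue, and it is silent in most adult tissues, where DNA methylation of its promoters holds it off. It has long been known from tumor cell lines, in which it is often switched on from its distal promoter. The distal promoter is known to be driven by transcription factors of the ETS family together with Sp1.

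The gene model lay at chrX:37804842-37808876 on the forward strand of GRCm38 (ENSMUSG00000095180, GENCODE M21), with 4 exons and 754 exonic bases. RefSeq places the start of *Rhox5* 50234 bases further upstream, so reads from an upstream first exon would not have been counted over the GENCODE model. Stretches of its sequence are shown, the region before the upstream start, because the regulators described below act on promoters, and the part of the coding sequence around its shortest exon, because reads over the exons are what the TPM values count. The first is the 250 bases before the RefSeq start (RefSeq table, GRCm38.p6, chrX:37754358-37754607, forward strand), with every GGAA or TTCC, the core of an ETS site on either strand, and every CG in capitals.
Rhox5 promoter window: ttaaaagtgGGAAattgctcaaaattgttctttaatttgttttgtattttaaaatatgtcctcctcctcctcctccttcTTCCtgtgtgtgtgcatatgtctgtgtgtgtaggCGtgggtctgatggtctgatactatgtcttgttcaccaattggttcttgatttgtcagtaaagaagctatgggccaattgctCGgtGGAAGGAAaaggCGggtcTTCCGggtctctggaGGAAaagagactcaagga
This window held 6 ETS cores and 4 CG dinucleotides. Among 32851 RefSeq promoter windows of the same length, 93.4% held at least 1 ETS core, the median number was 3, and 8.69% held as many as *Rhox5* or more. The median number of CG dinucleotides was 6, and 44.4% of windows had as few as *Rhox5* or fewer. The window held 1 match to the Sp1 core GGCGG or CCGCC, which 45.1% of windows held, and none to the GATA core AGATAA or TTATCT, which 9.99% held. Its GC content was 42.8%, against a median of 52.4%. In 1 place the last C of a TTCC is also the C of a CG.
The coding stretch, from GENCODE transcript Rhox5-201, has exon 3 (chrX:37806074-37806119, 46 bases) in capitals and 60 coding bases of exons 2 and 4 on either side. It codes for part of the homeodomain, the DNA-binding fold that gives homeobox genes their name.
Rhox5 coding exon 3: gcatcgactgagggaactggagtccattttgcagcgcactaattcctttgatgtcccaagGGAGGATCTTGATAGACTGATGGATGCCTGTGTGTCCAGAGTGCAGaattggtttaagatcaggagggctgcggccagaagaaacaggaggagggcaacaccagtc
None of the 705 windows of 50 bases in the *Rhox5* transcripts occurred in a transcript of another gene, so a read within them matched no other annotated transcript.

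*Rhox5* was expressed in all 12 libraries, and its level in leukemia cells from Rag2-/- hosts was below that in both other hosts. In WT hosts it stood at 66.0, 72.0, 74.8 and 50.7 TPM in replicates 1 to 4. In Rag2-/- hosts it stood at 25.8, 21.03, 23.6 and 35.0 TPM. In NSG hosts it stood at 56.5, 60.7, 97.4 and 59.4 TPM. Each of the 4 Rag2-/- libraries lay below all 8 others. The highest Rag2-/- value was 15.8 TPM under the lowest WT value and 21.6 TPM under the lowest NSG value.

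The means were 65.9 ± 10.7 TPM in WT hosts, 26.3 ± 6.07 TPM in Rag2-/- hosts and 68.5 ± 19.4 TPM in NSG hosts (SD, n = 4 each). The WT mean was 2.50 times and the NSG mean 2.60 times the Rag2-/- mean. On the log2(TPM + 1) scale, the Rag2-/- mean was lower than the WT mean by a difference of -1.30 and lower than the NSG mean by a difference of -1.33. These comparisons share the Rag2-/- libraries and are given as a description. NSG and WT libraries overlapped, with a ratio of means of 1.04 and a log2 difference of 0.034, and in 9 of the 16 pairs of an NSG and a WT library the NSG value was the lower. In the order of the host means, NSG and WT are therefore not separated by more than their spread.

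**Figure D1:**
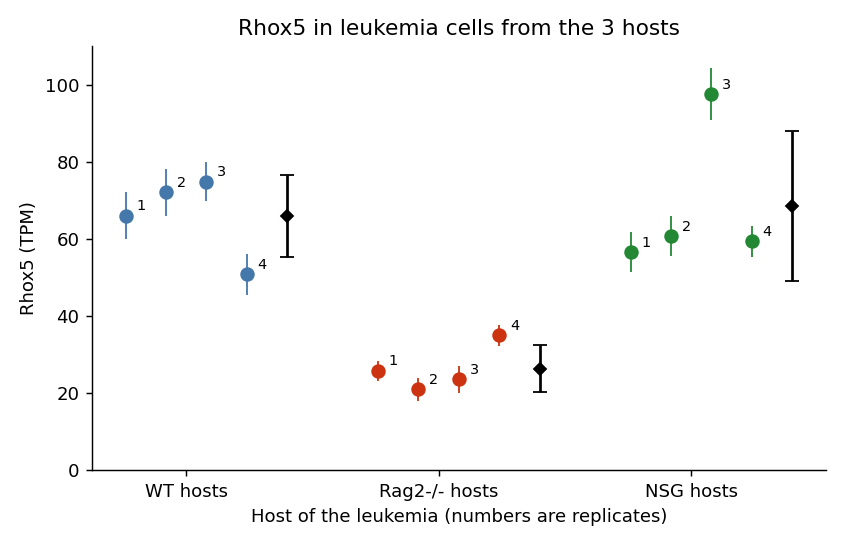
*Rhox5* TPM in each of the 12 libraries, by host, with the replicate number beside each point. Thin bars are the counting error of the library (1 SD from its estimated read pairs), and black diamonds with bars are the mean ± SD of the 4 libraries. The Rag2-/- points lie between 21.03 and 35.0 TPM and the others between 50.7 and 97.4 TPM.

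Between hosts lay 84.4% of the variation of *Rhox5* on the log2 scale. Within hosts, the highest value was 1.47 times the lowest in WT, 1.66 times in Rag2-/- and 1.72 times in NSG. NSG replicate 3 set the NSG spread. Without it, the NSG libraries gave 58.9 ± 2.11 TPM (SD, n = 3), and the NSG mean fell under the WT mean. In that library, genes of about the same exon length as *Rhox5* were also higher, with a median shift of 0.097 on the log2 scale over 815 genes, against shifts between -0.048 and 0.034 in the other 11 libraries. With these shifts subtracted, the Rag2-/- minus NSG difference was -1.28. Among the Rag2-/- libraries, replicate 4 was the highest at 35.0 TPM.

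The depth behind these values was recovered from the TPM values. TPM multiplied by exon length fell on whole multiples of 1 read for 98.8% to 99.0% of the genes under 20 reads, within 0.05 of a whole number, which gave 8004406 to 21405885 read pairs per library. *Rhox5* rested on an estimated 87.0 reads in Rag2-/- replicate 3, the fewest, and 441 reads in WT replicate 3, the most. Its counting SD, taken from read pairs, was 6.73% to 15.2% of the value, less than the difference between the host means. The deepest libraries, Rag2-/- replicates 4 and 1 with 21405885 and 17350725 pairs, ranked 9 and 10 of 12 in *Rhox5*. The shallowest, WT replicate 1 with 8004406 pairs, ranked 4. In the other direction, Rag2-/- replicate 3 with 8675587 pairs ranked 11 and WT replicate 3 with 13566626 pairs ranked 2. Depth was thus partly aligned with host, and its relation to *Rhox5* was not tested.

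*Rhox5* stood near the middle of the expressed genes in Rag2-/- hosts and higher elsewhere. Its percentile among the 15026 tested genes was 51.6 to 63.8 in the Rag2-/- libraries, 72.9 to 81.7 in WT and 75.6 to 86.6 in NSG. As a measure of how common such a pattern was, 120 genes, or 0.799% of those tested, had all 4 Rag2-/- libraries below the 8 others. Taken against 1 host at a time, 6.72% had all Rag2-/- libraries below all WT libraries, 2.25% had them below all NSG libraries, and 2.38% had all NSG libraries below all WT libraries. In the fit across all genes (limma, a linear model per gene with spread shared between genes, on log2(TPM + 1), with Benjamini-Hochberg adjustment), 0.326% were called lower in Rag2-/- than in WT hosts and 0.02% lower in Rag2-/- than in NSG hosts, at an adjusted p below 0.05 and a log2 fold change beyond 0.5. *Rhox5* was part of that fit, and since its own values chose it, nothing is read from where it fell. Between NSG and WT hosts, limma called 0 genes, and 1377 had an unadjusted p under 0.05.

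*Rhox5* was the most abundant Rhox gene by the deposited values. The table held 42 Rhox genes, 34 of them protein-coding and 8 pseudogenes. Of these, 32 were listed at 0 in every library, and *Rhox5* and *Rhox10* alone were above 0 in all 12 and reached a mean of 1 TPM. *Rhox5* made up 74.2% to 95.8% of the summed TPM of the family. For a gene of the length of *Rhox5*, 3 read pairs amounted to 0.662 to 1.72 TPM depending on the library, which is the level that a value of 0 leaves undetected and covers counting error only.

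*Rhox10*, a member known from male germ cells, lay 11.5 times below *Rhox5* on average. It stood at 5.65, 3.64, 9.55 and 4.99 TPM in WT hosts, at 2.63, 5.35, 1.07 and 5.67 TPM in Rag2-/- hosts and at 6.60, 2.64, 3.70 and 4.32 TPM in NSG hosts. All 3 hosts overlapped in *Rhox10*. It was not called between Rag2-/- and WT (log2 fold change -0.65 ± 0.38, SE, adjusted p = 0.347 by limma) or between Rag2-/- and NSG (-0.28 ± 0.38, adjusted p = 0.825). Its values rested on 2.00 to 28.5 read pairs, fewer than those of *Rhox5* in any library.

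The remaining 8 Rhox genes above 0 in any library stayed at or under 2.00 TPM, the value of *Rhox1* in NSG replicate 3. *Rhox1* was above 0 in 7 libraries, *Rhox8* and *Rhox9* in 3 each, *Rhox2d* in 2, and *Rhox2g*, *Rhox7a*, *Rhox7b* and the pseudogene *Rhox7-ps1* in 1 each. The copies of *Rhox2*, *Rhox3* and *Rhox4* are nearly identical. In 21 of 23 of these copies, more than 50% of the windows of 50 bases also occurred in another gene, with a median of 78.5%, and *Rhox7a* and *Rhox7b* shared 55.6% and 70.8% of theirs. The low values and zeros of these copies and of *Rhox7a* and *Rhox7b* are therefore uncertain, since reads that match several copies may not have been counted. *Rhox8* and *Rhox9* shared 4.90% and 6.28% of their windows, and *Rhox1*, *Rhox5* and *Rhox10* shared none.

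**Figure D2:**
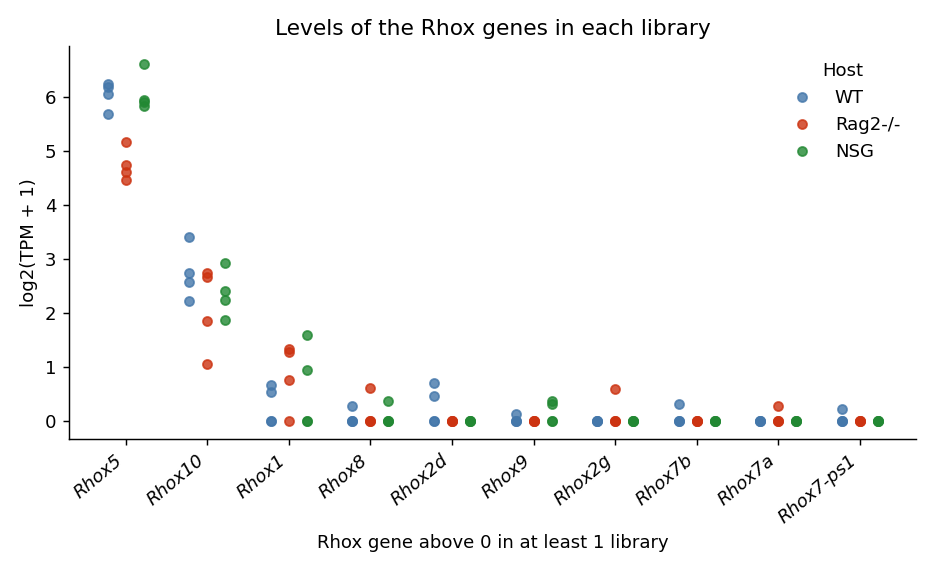
Levels of the 10 Rhox genes above 0 in at least 1 library, in log2(TPM + 1), 1 point per library and colored by host. *Rhox5* is the only member with Rag2-/- points clear of the others, and the members after *Rhox10* are mostly at 0.

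The genes around the cluster were then examined to see whether the *Rhox5* pattern extended along the chromosome. *Ndufa1*, a subunit of respiratory complex I 614 kb before *Rhox5*, had means of 167 TPM in WT, 119 TPM in Rag2-/- and 181 TPM in NSG hosts. Its Rag2-/- libraries, at 111 to 128 TPM, lay below all WT libraries, as did those of 6.72% of all genes, and overlapped the NSG libraries. It was not called against WT (log2 fold change -0.46, adjusted p = 0.195 by limma) or against NSG (-0.55, adjusted p = 0.241). *Zbtb33*, which lies 381 kb after *Rhox5* and encodes the methyl-CpG binding repressor Kaiso, had means of 38.1, 39.1 and 37.1 TPM in the same order of hosts and was not called (adjusted p = 0.833 and 0.763 by limma). *Rnf113a1* and *Nkap*, the other neighbours that averaged 1 TPM or more, were not called either, with adjusted p between 0.452 and 0.889 by limma. Below that mean, *Tmem255a* averaged 1.33 TPM in WT, 0.395 TPM in Rag2-/- and 1.14 TPM in NSG hosts. In *Tmem255a* the Rag2-/- and NSG libraries overlapped. *Gm9* averaged 1.08, 0.0816 and 0.652 TPM. Its 4 Rag2-/- libraries, at 0 to 0.204 TPM, lay below the 8 others, the lowest of which was at 0.432 TPM. At the length of *Rhox5*, 3 read pairs amount to 0.662 to 1.72 TPM, and *Gm9* is of similar length (817 exonic bases). The gap in *Gm9* therefore rests on few reads and is not read as a difference between hosts. *Tmem255a* and *Gm9* were below the filter and not tested. *Akap14*, *Atp1b4*, *Mir3110* and *Zfp36l1-ps* averaged 0.521 TPM or less in every host.

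Over the rest of the X chromosome, 463 other genes were tested. Against WT hosts, 12 of them were called, 10 higher and 2 lower in Rag2-/- hosts, or 2.59% beside 1.47% of all genes tested. The 2 lower ones were the pseudogenes *Hmgb1-ps2* and *Rpl17-ps8*. Against NSG hosts, 3 were called, all higher (*Cybb*, *Tlr13* and *Tlr8*), or 0.648% beside 0.213% of all genes. The log2 fold changes of the X-linked genes had medians of 0.030 (WT) and 0.014 (NSG), beside 0.024 and 0.013 over all genes, so these genes as a group lay no lower than the rest.

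Because *Rhox5* is silenced in most tissues by DNA methylation and chromatin marks, 79 genes that act on such silencing or on its promoters were examined, of which 74 averaged 1 TPM or more. Of the 74, 1 was called in any comparison, or 1.35% against WT hosts beside 1.47% of all genes tested. None of the 74 had its 4 Rag2-/- libraries below the 8 others, beside 0.799% of all genes. The range of log2 fold changes of the 74 was -0.52 to 0.35 against WT and -0.34 to 0.40 against NSG. *Rhox5* was chosen for its host differences, so their larger size says nothing about these genes.

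The called gene was *Dnmt3a*, which encodes a DNA methyltransferase that lays down methylation at unmethylated sites. It stood at 20.3, 23.8, 21.4 and 23.1 TPM in WT hosts, at 15.5, 13.3, 13.7 and 18.5 TPM in Rag2-/- hosts and at 21.4, 20.05, 15.9 and 20.8 TPM in NSG hosts. The Rag2-/- libraries lay below the WT libraries and overlapped the NSG libraries. It fell against WT by 0.52 on the log2 scale (SE 0.12, adjusted p = 0.036 by limma) and had a log2 fold change of -0.34 against NSG (adjusted p = 0.224). The call was lost when any WT library or any of Rag2-/- replicates 1 to 3 was left out. *Dnmt3a* and *Rhox5* were thus both lower in Rag2-/- than in WT hosts.

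The other writers and readers of DNA methylation were not called. *Dnmt1*, the maintenance methyltransferase, had means of 308, 292 and 291 TPM in WT, Rag2-/- and NSG hosts. *Uhrf1*, which brings Dnmt1 to replicated DNA, had means of 274, 250.5 and 267 TPM. *Mbd2* and *Mbd3*, of the methyl-CpG binding domain family, had log2 fold changes of 0.35 and -0.25 against WT hosts, with adjusted p of 0.065 and 0.067 by limma. *Tet1*, a methylcytosine dioxygenase, was above 0 in 7 libraries at host means of at most 0.0292 TPM, and *Tet2* had means of 21.1, 22.7 and 19.6 TPM. Across the 21 tested genes of this list, the medians of the log2 fold changes were -0.03 (WT) and -0.02 (NSG), beside 0.024 and 0.013 over all genes.

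None of the 22 tested genes of H3K9 methylation and heterochromatin was called, beside 1.47% of all genes against WT and 0.213% against NSG hosts. *Ehmt2*, an H3K9 methyltransferase, had an adjusted p of 0.045 against WT by limma with a log2 fold change of -0.23, within the limit of 0.5. *Setdb1*, another H3K9 methyltransferase, had means of 42.0, 40.7 and 41.0 TPM. None of the 21 tested Polycomb genes was called, beside the same shares of all genes. *Ezh2*, which methylates H3K27, had means of 79.5, 74.8 and 77.5 TPM, and *E2f6* had means of 38.8, 35.7 and 37.8 TPM.

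Of 13 listed factors known to drive the *Rhox5* promoters, 10 were tested and 0 called. Of all genes, 1.47% were called against WT and 0.213% against NSG hosts. *Elf1*, an ETS factor, had means of 210.4, 225 and 219 TPM in WT, Rag2-/- and NSG hosts. *Gabpa*, another ETS factor, had means of 82.3, 88.7 and 80.2 TPM, and *Sp1* had means of 87.7, 89.3 and 81.7 TPM. *Gata4* and *Gata6*, transcription factors of the gonads among other tissues, were listed at 0 in every library. The log2 fold changes of the 10 tested factors had medians of 0.10 (WT) and 0.09 (NSG), beside 0.024 and 0.013 over all genes.

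**Figure D3:**
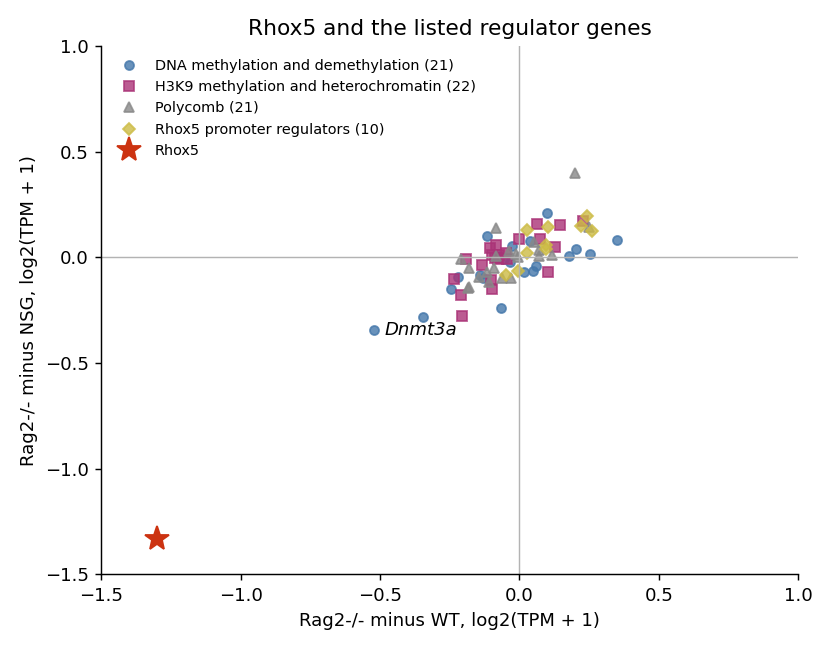
Differences of mean log2(TPM + 1) for *Rhox5* (star) and the 74 tested regulator genes by list, Rag2-/- minus WT across and Rag2-/- minus NSG upward. The 2 axes share the Rag2-/- libraries, so points spread along the diagonal. *Rhox5* lies at -1.30 and -1.33, and *Dnmt3a*, the regulator farthest to the left, at -0.52 and -0.34.

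Other genes listed as germline genes that promoter methylation holds silent were mostly off. Of 32 listed, 13 were at 0 in every library, and 6 averaged 1 TPM or more. Of these 6, 0 were called, beside 1.47% of all genes against WT and 0.213% against NSG hosts. The log2 fold changes of the 6 genes had medians of -0.03 in the WT comparison and -0.005 in the NSG comparison. *Ddx4*, an RNA helicase of germ cells, stood at 4.00, 5.06, 4.03 and 4.84 TPM in WT hosts, at 2.70, 3.07, 2.44 and 2.90 TPM in Rag2-/- hosts and at 3.82, 4.23, 5.68 and 4.27 TPM in NSG hosts. As with *Rhox5*, all 4 Rag2-/- libraries lay below the 8 others, as did those of 0.799% of all genes, and NSG replicate 3 was the highest library. *Ddx4* was not called, with a log2 fold change of -0.54 against WT (adjusted p = 0.061 by limma) and -0.53 against NSG (adjusted p = 0.138).

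The X-linked genes *Xlr4a* and *Xlr4b*, at 51.6 and 24.4 TPM over all libraries, were the most abundant of this list. They were thus not silent here, so the description of the list does not hold for them. Their log2 fold changes lay between -0.05 and -0.004 in the Rag2-/- comparisons. *Piwil2*, a partner of germline small RNAs, had means of 2.11, 3.17 and 3.12 TPM in WT, Rag2-/- and NSG hosts. Of 15 genes of embryonic stem cells and trophoblast, *Esrrb* alone reached a mean of 1 TPM, and it was not called (log2 fold change 0.10 against either host, adjusted p = 0.832 and 0.896 by limma). *Nanog* was above 0 in 1 library and *Pou5f1* in 7, and *Sox2* and *Cdx2* were listed at 0 throughout.

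Genes that Rhox5 is known to control in Sertoli cells could not be compared. None of the 6 listed reached a mean of 1 TPM. *Retn*, *Pparg*, *Ppargc1a* and *Unc5c* were above 0 in 11, 9, 10 and 3 libraries, and *Ins2* and *Adipoq* were listed at 0 in all 12.

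Among homeobox genes, *Rhox5* was one of the more abundant. With a mean of 53.6 TPM over all libraries it ranked 13 of 66, of which 34 reached a mean of 1 TPM. The Hoxa genes that MLL fusions are known to keep on stood highest, with *Hoxa9* at 213 TPM. Directly above *Rhox5* were *Zhx1* at 56.5 TPM and *Meis1*, a partner of Hoxa9, at 57.6 TPM. Directly below were *Pou2f2* at 41.8 TPM and *Pknox1* at 39.4 TPM. In single libraries, *Rhox5* ranked 7 to 13 of 66 in WT hosts, 7 to 11 in NSG hosts and 15 to 19 in Rag2-/- hosts.

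Of 33 other homeobox genes tested, none had its 4 Rag2-/- libraries below the 8 others, beside 0.799% of all genes. With a share that small, the count says little about these 33 genes. *Hlx*, a homeobox gene of blood cells, was the only one called, and it rose against WT hosts, where 1.14% of all genes were called higher. It stood at 20.8 to 28.7 TPM in WT, 32.7 to 40.5 TPM in Rag2-/- and 20.2 to 28.3 TPM in NSG hosts, with a log2 fold change of 0.51 against WT (adjusted p = 0.045 by limma) and 0.61 against NSG (adjusted p = 0.060). The log2 fold changes of the 33 genes had medians of 0.06 (WT) and 0.07 (NSG), beside 0.024 and 0.013 over all genes.

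**Figure D4:**
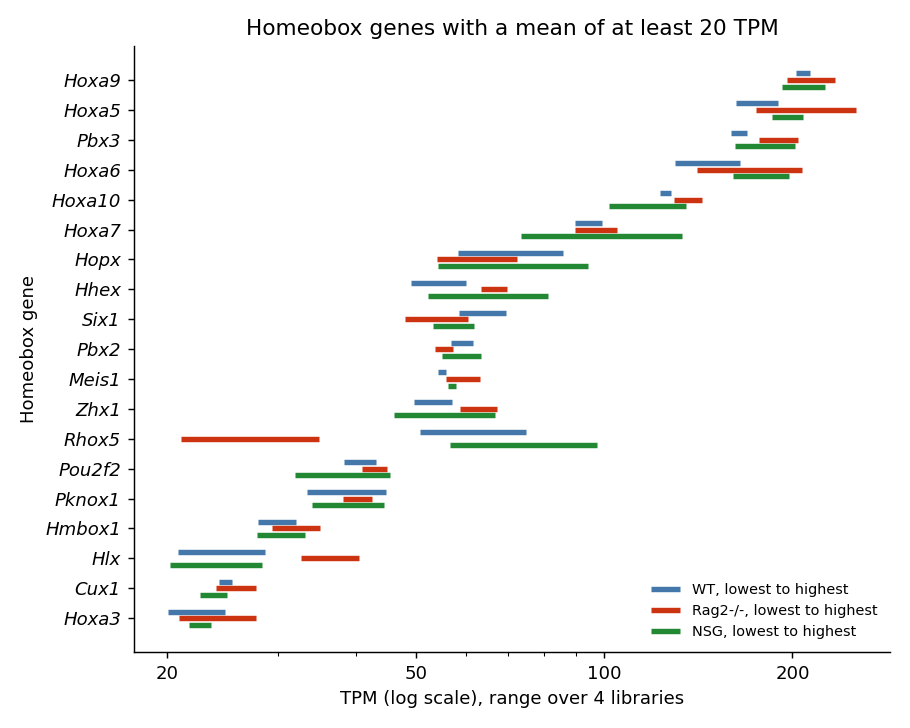
Range of TPM over the 4 libraries of each host for the 19 homeobox genes that averaged 20 TPM or more, on a log axis, highest mean at the top. For *Rhox5* the Rag2-/- range (21.03 to 35.0 TPM) is clear of the other ranges on the low side, and for *Hlx* it is clear on the high side.

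The genes whose levels followed *Rhox5* most closely over the 12 libraries were found among 15000 genes on the log2 scale. The highest Pearson correlations were those of *Erh* (r = 0.947), *Hnrnpa1* (r = 0.933), *Pfkp* (r = 0.929), *Fabp5* (r = 0.925) and *Mrpl12* (r = 0.922), with Spearman's rho between 0.713 and 0.944. The lowest were those of *S100a9* (r = -0.964), *Retnlg* (r = -0.954), *Mmp8* (r = -0.950), *Camp* (r = -0.949) and *Cdk2ap2* (r = -0.942). In all, 125 genes had r over 0.8 and 301 had r under -0.8. Since the libraries fall into hosts and *Rhox5* differs between them, any gene that separates the Rag2-/- libraries scores high here, so these values are a description over 12 points.

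Taken as deviations from the host means, the order changed. The highest within-host correlations with *Rhox5* were those of *Gm7962*, *Hmgn1*, *Dazap1*, *Zfp956* and *Kctd6* (r = 0.899 to 0.952), and the lowest were those of *Elmod3*, *Hes7*, *Slc39a13*, *Cdk2ap2* and *Gmip* (r = -0.962 to -0.925). *Cdk2ap2* was the only gene in both sets of lowest values, and no gene was in both sets of highest values. NSG replicate 3, which had the highest *Rhox5*, was also an extreme library for *Gm7962* and *Elmod3*. *Hnrnpa1*, an abundant RNA-binding protein, kept a within-host r of 0.738 and *Erh* one of 0.704. At the low end, *S100a9*, *Retnlg*, *Mmp8* and *Camp* kept within-host r of -0.750, -0.782, -0.669 and -0.732.

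*Hnrnpa1* differed between hosts by far less than *Rhox5*, with means of 900.5 TPM in WT, 669.7 TPM in Rag2-/- and 883 TPM in NSG hosts. *Fabp5*, a fatty acid binding protein, came nearer, with means of 7.99, 3.75 and 7.19 TPM. At the opposite end, *S100a9*, a calcium-binding protein of neutrophils, had means of 24.9, 474 and 28.0 TPM.

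Genes of neutrophil secondary and tertiary granules moved with *Rhox5* in the other direction. Of 18 listed and tested, 14 were called higher in Rag2-/- than in WT hosts, beside 1.14% of all genes, and 10 were called higher than in NSG hosts, beside 0.193%. Their summed TPM was 2304 to 4347 in WT, 3752 to 12704 in Rag2-/- and 3015 to 4361 in NSG libraries. In Rag2-/- replicate 4 the sum was 3752 TPM, inside the range of the other hosts, and *Rhox5* at 35.0 TPM was below all 8 of their libraries. Among the Rag2-/- libraries, replicate 4 was the lowest in this sum and the highest in *Rhox5*. On the mean log2 scale the granule genes of that library stood at 5.66, above the highest value of 4.74 in the other hosts. In bulk RNA, fewer cells of a type and less RNA per cell cannot be told apart, and the part of these genes' cells in the *Rhox5* level was not tested.

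Of 14 genes of primary granules and progenitors, 3 were called lower in Rag2-/- than in WT hosts, beside 0.326% of all genes, and 0 against NSG hosts, beside 0.02%. *Mpo*, a primary granule enzyme, fell against WT hosts with means of 553 and 145 TPM (adjusted p = 0.019 by limma). In NSG replicate 3, which had the highest *Rhox5* level, *Mpo* was at 219 TPM, below the other NSG libraries at 394 to 710.4 TPM.

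**Figure D5:**
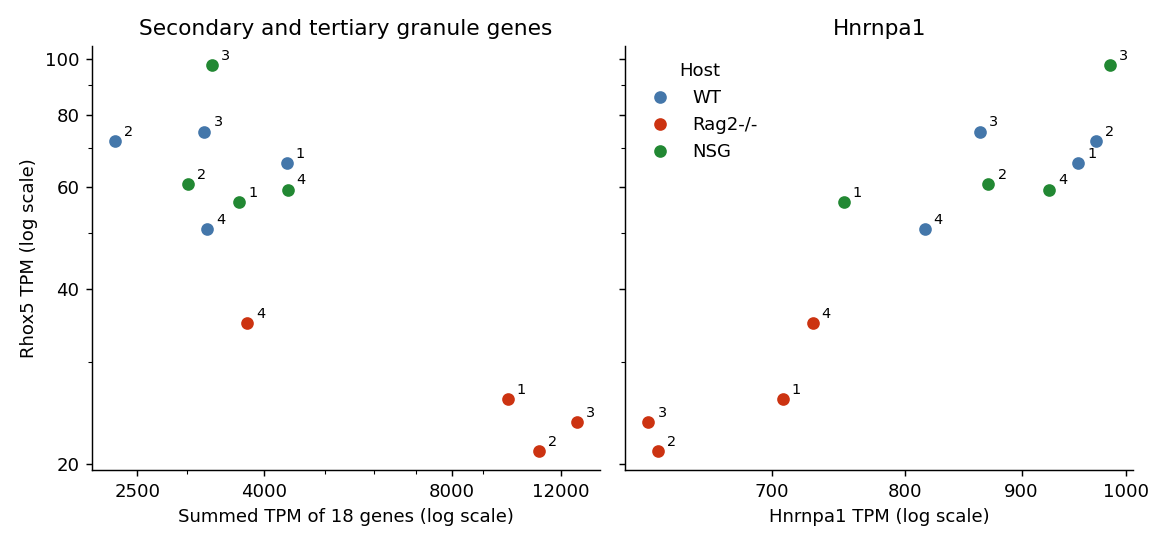
*Rhox5* TPM on a log axis against the summed TPM of 18 secondary and tertiary granule genes (left) and against *Hnrnpa1* TPM (right), both on log axes, 1 point per library with its replicate number. Rag2-/- replicate 4 lies among the WT and NSG libraries on the left axis at 3752 TPM and below them in *Rhox5* at 35.0 TPM. Among the Rag2-/- libraries it is the lowest in the granule sum and the highest in *Rhox5*.

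Markers of other cells that could remain in the sort were also read. Over all genes tested, 1.47% were called in Rag2-/- against WT hosts and 0.213% against NSG hosts. For T and NK cells, 2 of 16 genes were tested and 0 called, and the summed TPM was 11.0 to 16.3 in WT, 9.48 to 17.1 in Rag2-/- and 10.1 to 15.1 in NSG libraries, with *Trac* and *Cd3e* listed at 0 throughout. The tested genes, *Nkg7* and *Lck*, had log2 fold changes of -0.72 and -0.16 against WT and -0.39 and -0.31 against NSG hosts. *Ncr1*, the NK receptor NKp46, was listed at 0 in all 8 WT and NSG libraries and at 0.391, 0.408, 0.531 and 0.108 TPM in the Rag2-/- libraries. These values are under the 0.662 to 1.72 TPM that 3 read pairs amount to at the length of *Rhox5*, so few reads lie behind them. *Ncr1* was below the filter and not tested. Unlike *Nkg7* and *Lck*, it had its higher values in Rag2-/- hosts, and it was singled out after its values were seen. For B and plasma cells, 6 of 12 were tested and 1, *Igkc*, was called lower against WT hosts, beside 0.326% of all genes. Its means were 9.38 TPM in WT and 0.0738 TPM in Rag2-/- hosts. In NSG hosts *Igkc* was above 0 in replicate 1 alone, at 0.676 TPM, so its low level was not particular to Rag2-/- hosts. *Ms4a1* was listed at 0 throughout. The summed B-cell level was 229.8 to 295 TPM in WT, 180.0 to 272 TPM in Rag2-/- and 171 to 279 TPM in NSG libraries.

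For macrophages, 7 of 12 genes were tested and 1, *C1qc*, was called higher against WT hosts, beside 1.14% of all genes. Its means were 1.12 TPM in WT and 4.07 TPM in Rag2-/- hosts. The summed macrophage level was 92.3 to 101 TPM in WT, 104 to 120.0 TPM in Rag2-/- and 57.1 to 115.1 TPM in NSG libraries. On the mean log2 scale the 7 tested genes stood at 2.12 to 2.71 in WT, 2.99 to 3.52 in Rag2-/- and 2.14 to 2.37 in NSG libraries. By that measure all Rag2-/- libraries lay above the others. The medians of their log2 fold changes were 0.52 (WT) and 0.81 (NSG), beside 0.024 and 0.013 over all genes. Of the 3 erythroid and 3 stromal genes tested, 0 were called. Their sums were 82.3 to 99.8 and 167 to 181 TPM in WT, 64.7 to 86.9 and 146 to 201 TPM in Rag2-/-, and 78.7 to 110.2 and 116 to 193 TPM in NSG libraries. Of 8 X-inactivation and sex-linked genes, the 4 on the Y chromosome were listed at 0 in every library and 0 of the 3 tested were called. The list summed to 23.96 TPM in Rag2-/- replicate 3 and to 4.41 to 7.83 TPM in the other 11 libraries, while *Rhox5* in that replicate, at 23.6 TPM, was between the other Rag2-/- libraries. The part of any of these cell types in the *Rhox5* values was not tested.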

How the data were processed

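Total RNA of GFP+ leukemia cells was purified on an RNeasy column, polyadenylated RNA was selected on poly-T beads, and read pairs were aligned by the authors to the mouse genome mm10 with HISAT2 on the Galaxy platform. The deposited unit is TPM, which the authors calculated from raw gene counts. The counting program and annotation are not given in the sources used here. Because TPM divides by gene length and sums to 1000000 per library, a change in a few abundant genes moves all others.

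Groups followed the labels, 4 libraries for each of 3 hosts. Gene IDs were matched to GENCODE M21 (55141 of 55401). All 12 libraries were fitted in one model with limma 3.58.1 (R 4.3.3) on log2(TPM + 1), with eBayes and a trend, for the 15026 genes that averaged 1 TPM or more. A gene was called at a Benjamini-Hochberg adjusted p below 0.05 and a log2 fold change beyond 0.5. Since the file holds TPM, no count model was used. A fold change on the log2(TPM + 1) scale understates the change of low genes. Where separate mice are not stated, p-values measure only the spread between these libraries. The fit was tested on simulated data.

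*Rhox5* and the 16 gene lists were chosen with earlier results of these data known, so *Rhox5* stayed in the fit across all genes but its own test result is not given. Genes named were *Rhox5*, other Rhox genes, the 5 nearest genes on each side of the cluster, the 5 genes most and least correlated with *Rhox5* over all libraries and within hosts, the homeobox genes nearest in level, and in each list the called and up to 4 most abundant genes. *Ncr1*, and single genes given for their known role, are exceptions. The values of 1 listed gene are not reported here. Read pairs per library (8004406 to 21405885) were estimated from the TPM values and exon lengths, and intervals from them cover counting error only. Alternatives were other pseudocounts, scalings, filters and fits, leaving out each library, the replicate number as a block, and a split of libraries seen in earlier work. Figures were drawn with matplotlib 3.10.9.

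The replicate numbers do not pair the libraries. Over 12 pairs of libraries with the same number, the correlation of deviations from host means was -0.091 to 0.032, and 0 were over 0.1.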

Additional observations from a re-analysis of the deposited data

Results flagged for a closer look

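Each of 126 groups of 4 libraries, for 42 named genes in the 3 hosts, was checked for a library far from the rest, by the gap between the extreme library and its neighbour as a share of the whole range (Dixon's criterion). This marked 9 groups, and chance alone marks about 1 in 20. The number is not read against chance, since *Rhox5* was chosen on these values, *Gm7962*, *Elmod3* and *Slc39a13* were named for following it within hosts, and *Igkc* was at 0 in the other 3 libraries of each group marked.

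*Rhox5* was marked in NSG hosts, where replicate 3 at 97.4 TPM lay above the next library at 60.7 TPM, a gap of 0.899 of the range. The same library was marked as the highest for *Gm7962* (3.60 against 1.38 TPM, 0.909) and as the lowest for *Elmod3* (8.88 against 13.2 TPM, 0.835), both named for following *Rhox5* within hosts. Rag2-/- replicate 4 was the lowest for *Retnlg* at 18.2 TPM, against 90.0 TPM in the next library (0.861). WT replicate 4, the lowest WT library for *Rhox5*, was the highest for *Slc39a13* (17.6 against 14.1 TPM, 0.843) and for the X-linked neighbour *Rnf113a1* (8.30 against 5.02 TPM, 0.911). NSG replicate 4 was the lowest for *Wfdc21* at 746 against 855 TPM (0.938). *Igkc* was above 0 in Rag2-/- replicate 2 alone among Rag2-/- libraries (0.295 TPM, value 1) and in NSG replicate 1 alone among NSG libraries (0.676 TPM, value 1).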

How the results depend on the processing

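The *Rhox5* differences moved by less than the spread between libraries under every alternative run, and both Rag2-/- differences kept their direction. The pseudocount, scaling, split and exon-length alternatives gave Rag2-/- minus WT from -1.33 to -1.28 and Rag2-/- minus NSG from -1.36 to -1.28. Over the same alternatives, NSG minus WT ranged from -0.013 to 0.054. Leaving out 1 library gave -1.44 (without Rag2-/- replicate 4) to -1.20 (without Rag2-/- replicate 2), -1.47 (without Rag2-/- replicate 4) to -1.15 (without NSG replicate 3) and -0.15 (without NSG replicate 3) to 0.11 (without NSG replicate 1). The NSG minus WT difference was near 0 and changed sign relative to genes of similar exon length (-0.013) and with single libraries left out, so no order of these hosts can be read.

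Counts of called genes were less stable. Against WT hosts the 221 genes became 114 with all genes above 0, 420 with no fold limit and 355 with the 8 libraries alone, and 47 to 326 with 1 library left out (120 and 140 without WT replicates 3 and 4, 53 and 51 without Rag2-/- replicates 2 and 3, 47 without WT replicate 2). Against NSG hosts the 32 became 14 with a pseudocount of 0.1, 11 with median-ratio scaling, 19 with quantile normalization, 15 with the split, 7 with all genes above 0, 18 without a trend, 6 with the 8 libraries alone and 85 relative to genes of similar exon length, which was chosen after seeing the data. With 1 library left out it was 4 (without Rag2-/- replicate 3) to 90 (without Rag2-/- replicate 4). It was 87 without NSG replicate 3, 20, 19 and 12 without WT replicates 1, 3 and 4, 6 and 5 without Rag2-/- replicates 1 and 2, and 8, 5 and 5 without NSG replicates 1, 2 and 4. NSG against WT gave 2 with all genes above 0 and 0 to 2 with 1 library left out (2 without WT replicate 2, 1 without NSG replicate 2). The 1 regulator called became 0 with all genes above 0 or relative to genes of similar exon length, 2 with no fold limit, and 0 to 1 with 1 library left out (0 without any WT library or Rag2-/- replicates 1, 2 or 3). The causes were not tested.

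With the replicate number as a block, the numbers sharing no source in the labels and the libraries not pairing by it, 165 genes were called against WT and 5 against NSG hosts. The *Rhox5* differences under the block were unchanged, which the design fixes in advance. All hosts hold the same replicate numbers, so a block on them cannot move a difference between hosts.

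Depth limits the low Rhox genes, for which 3 read pairs amount to 0.662 to 1.72 TPM at the length of *Rhox5*.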
